A study of Mus musculus with 4 samples.

Results

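A set of 8 meiotic recombination genes was followed through oocyte growth. They were taken by symbol from the table of reference genes that the authors deposited, and all 8 of them (Spo11, Prdm9, Dmc1, Brca1, Brca2, Msh4, Msh5 and Mlh3) are among its 25587 rows. RNA had been sequenced from oocytes of wild-type C57BL/6Babr mice, as 1 library per stage: non-growing oocytes (NGOs) from mice aged 5 days, growing oocytes from mice aged 8 to 14 days (GO1) and 15 days (GO2), and fully grown germinal vesicle oocytes (FGOs) from mice aged 20 days. Each library is a pool of oocytes, ribosomal RNA had been depleted from all of them, and the labels name no treatment. The dUTP protocol was used for the NGO and FGO libraries and the ScriptSeq kit for both growing stages, so that across these 2 kinds of library stage and protocol cannot be told apart. No stage has a replicate, hence there is no replicate error and no test. Values are RPKM, the reads on a gene divided by its exon length in kilobases and by the library total, and intervals are 95 % Poisson intervals of the counts recovered from them, which cover counting error only.

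Meiotic recombination begins with programmed double-strand breaks (DSBs), is carried on by strand exchange with the homologous chromosome, and ends with the resolution of a part of these events as crossovers. In female mice these steps take place in the fetal ovary, before the oocytes arrest at the end of meiotic prophase. The oocytes sequenced here were all taken after birth, and therefore after the programmed breaks of meiotic prophase. RPKM is a share of a library, so that fewer oocytes with a transcript and less transcript per oocyte cannot be told apart.

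The counts recovered on reference genes added up to 61373003 at the NGO stage, 71566896 at GO1, 132469463 at GO2 and 68812754 at the FGO stage. In each library this is more than the uniquely mapped reads that the authors report. A fragment may thus have been counted more than once, and the intervals given here may be too narrow. Intervals from counts divided by 4 are described at the end. All 8 oocyte markers looked at (Ddx4, Dazl, Nobox, Figla, Gdf9, Bmp15, Zp3 and Kit) had at least 3 counts in every library, with a summed RPKM between 2110 and 3390. Gdf9 and Zp3 made up most of this sum, and single markers moved. From NGOs to FGOs 1 was at least 2-fold higher (Bmp15) and 3 at least 2-fold lower (Figla, Ddx4 and Zp3), where 17.7 and 16.8 % of all genes were. The summed RPKM of 5 granulosa cell markers was 1.62 at the NGO stage, 1.51 at GO1, 3.59 at GO2 and 8.36 at the FGO stage. That of 8 markers of stroma, endothelium and blood was 5.65, 5.31, 8.51 and 9.95 in the same order, and so highest in FGOs. Pecam1 (1.74, 5.15, 8.28 and 9.70) made up most of the latter sum in GO1, GO2 and FGOs. Without it the other 7 added up to 3.91 at the NGO stage, 0.157 at GO1, 0.235 at GO2 and 0.252 at the FGO stage. The summed level was thus highest in the NGO library without Pecam1 and in the FGO library with it.

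The members differed widely in level. At least 3 counts were found for 8 of 8 genes in NGOs and for 7 of 8 in each of the other libraries, Spo11 being the exception. An RPKM above 1 was reached by 5 of them in NGOs, GO1 and FGOs and by 4 in GO2. Brca1, Brca2 and Msh4 were above the median of the detected genes (those with at least 3 counts) in all 4 libraries, and Mlh3 in all but FGOs. Prdm9, Dmc1, Msh5 and Spo11 were below it in every library.

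**Figure D1:**
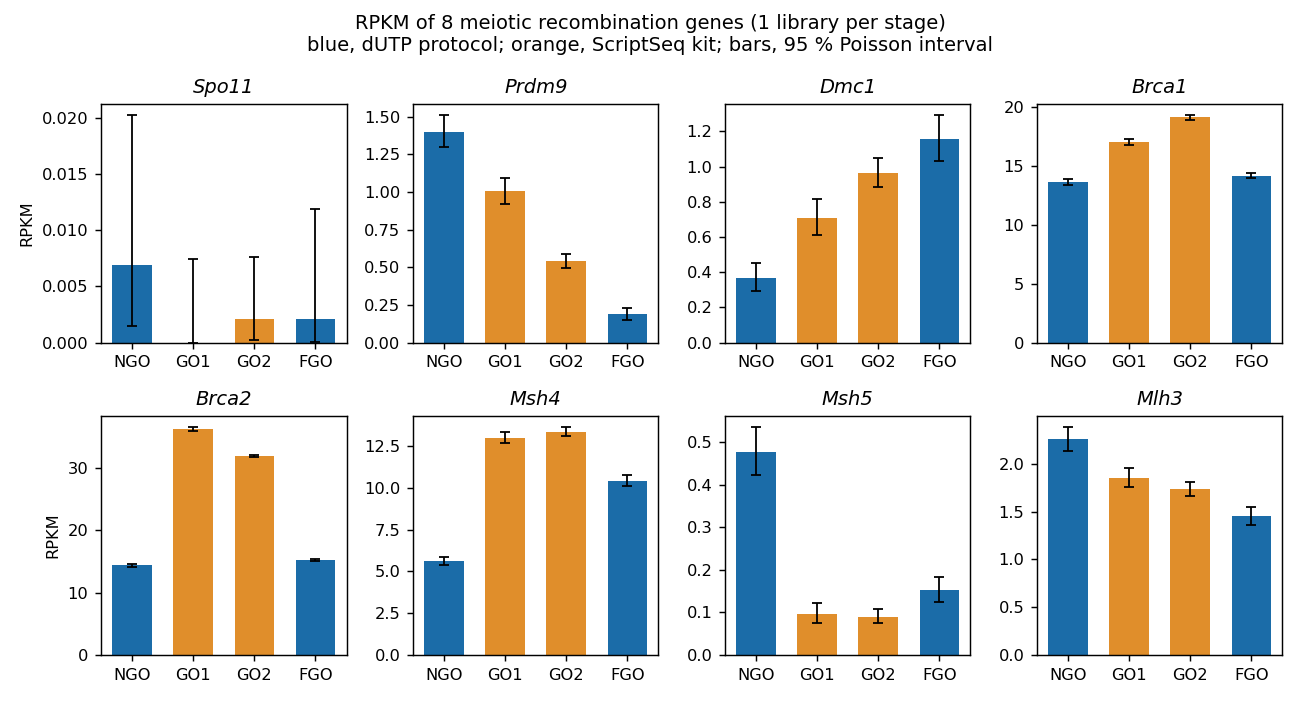
RPKM (linear axes from 0, a scale for each gene) of the 8 genes in the 4 libraries, 1 library per stage, with blue bars for the dUTP protocol, orange bars for the ScriptSeq kit and 95 % Poisson intervals of the counts. Prdm9 is lower and Dmc1 higher at each later stage (the intervals of GO2 and FGOs overlap for Dmc1), Brca2 and Msh4 are highest in the growing oocytes, and Msh5 stands apart in NGOs.

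Spo11 encodes the topoisomerase-like protein that makes the breaks. The gene (chromosome 2 from 172977700 to 172993576 of GRCm38, plus strand) had 3 counts at the NGO stage, 0 at GO1, 2 at GO2 and 1 at the FGO stage. Its RPKM was 0.0069 (0.0014 to 0.0202) in NGOs and no more than 0.0021 in the others. No library was above the floor of 3 counts, which is an RPKM of 0.0069 at the NGO stage, 0.0060 at GO1, 0.0032 at GO2 and 0.0064 at the FGO stage, and no change was computed.

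Prdm9 encodes the histone methyltransferase whose zinc fingers choose where breaks are made. The gene (chromosome 17 from 15543079 to 15564354, minus strand) had an RPKM of 1.40 (1.30 to 1.51) at the NGO stage, 1.01 (0.923 to 1.09) at GO1, 0.541 (0.498 to 0.588) at GO2 and 0.186 (0.151 to 0.228) at the FGO stage. The intervals of no pair of libraries overlap, and the order of the values was the order of the stages. From NGOs to FGOs the log2 change was -2.84 (counting interval -3.18 to -2.55), or 7.18-fold lower, from 667 to 96 counts. Among the 15270 genes with at least 20 counts in this pair it lay at the 2.58th percentile. From GO1 to GO2 the log2 change was -0.92 (-1.10 to -0.75), the 3.53rd percentile of 15749 genes. Prdm9 lay at the 44.5th percentile of detected genes by RPKM in NGOs and at the 24.3rd in FGOs. The summed level of the stromal, endothelial and blood markers was highest in NGOs as well without Pecam1, but in FGOs with it. The part of these markers in the values of Prdm9 was not tested.

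Dmc1 encodes the recombinase that acts in meiosis alone and searches the homologous chromosome. The gene (chromosome 15 from 79561500 to 79605084, minus strand) took the opposite course, with an RPKM of 0.367 (0.295 to 0.452) at the NGO stage, 0.709 (0.613 to 0.815) at GO1, 0.964 (0.882 to 1.05) at GO2 and 1.16 (1.03 to 1.29) at the FGO stage. The intervals of GO2 and FGOs overlap, and those of the other libraries do not. The log2 change was 1.70 (1.36 to 2.06) from NGOs to FGOs, or 3.24-fold higher, from 89 to 303 counts, and 0.41 (0.17 to 0.65) from GO1 to GO2. The granulosa markers also had their highest summed level in FGOs, most of it from Cyp19a1 (an RPKM of 0.518, 1.08, 3.13 and 6.08 from NGOs to FGOs). Inha (0.6375, 0.2299, 0.2584 and 1.541), Fshr (0.1348, 0.1669, 0.1714 and 0.3016) and Amh (0.2498, 0.0284, 0.0199 and 0.412) were highest in FGOs too. Foxl2 was highest in NGOs (0.0754 against 0.0265 in FGOs, from 21 and 8 counts). The part of the granulosa markers in the values of Dmc1 was not tested.

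The promoters of both genes are shown because, among the members with enough counts, these 2 had the largest change in either direction from NGOs to FGOs. The windows are those of RefSeq (GRCm38.p6), which cover the bases just before and after an annotated start, written 5′ to 3′ on the strand of the gene. Capitals mark matches, on either strand, to the letters GCGGGAA (bound by E2F proteins), CACGTG (E-box), CNCCTCAG (STRA8) or TAATTG (NOBOX), which 4.6, 7.15, 7.94 and 8 % of 32851 such windows hold. For Prdm9 the upstream one of 2 annotated starts is given (chr17:15564305-15564604, minus strand) and for Dmc1 the only one (chr15:79605060-79605359, minus strand).
Prdm9: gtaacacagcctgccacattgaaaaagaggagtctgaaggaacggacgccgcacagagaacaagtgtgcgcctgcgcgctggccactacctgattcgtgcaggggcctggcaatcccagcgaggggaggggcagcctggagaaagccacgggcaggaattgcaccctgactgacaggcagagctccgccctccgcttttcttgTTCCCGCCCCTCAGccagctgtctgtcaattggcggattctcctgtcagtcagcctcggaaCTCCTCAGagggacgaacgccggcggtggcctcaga
Dmc1: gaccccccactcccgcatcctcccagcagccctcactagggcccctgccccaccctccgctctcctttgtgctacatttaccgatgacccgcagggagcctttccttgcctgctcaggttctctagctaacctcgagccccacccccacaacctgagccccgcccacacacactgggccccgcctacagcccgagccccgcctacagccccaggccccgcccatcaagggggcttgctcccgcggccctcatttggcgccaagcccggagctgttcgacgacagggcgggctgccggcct
The Prdm9 window holds a GCGGGAA match that begins at -47 and CNCCTCAG matches at -41 and 14, counted from the start as 0, and the matches at -47 and -41 share a base. The downstream Prdm9 window and the Dmc1 window hold none of these letters. Both windows printed have 18 CpGs, against a median of 7 over all windows. A match is a description of the letters and not a measured site.

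Brca1 and Brca2 encode the proteins that prepare broken ends and load recombinases on them, in dividing cells as well as in meiosis. These were the members with the highest levels. Brca1 (chromosome 11 from 101488764 to 101551955, minus strand) had an RPKM of 13.6 (13.4 to 13.9) at the NGO stage, 17.0 (16.7 to 17.2) at GO1, 19.1 (18.9 to 19.3) at GO2 and 14.2 (13.9 to 14.4) at the FGO stage. The whole range is 1.40-fold, the smallest of the 7 detected members. Brca1 lay between the 83.5th and the 89.9th percentile of detected genes.

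Brca2 (chromosome 5 from 150522630 to 150569746, plus strand) had an RPKM of 14.4 (14.2 to 14.6) at the NGO stage, 36.2 (35.9 to 36.5) at GO1, 32.0 (31.7 to 32.2) at GO2 and 15.2 (15.01 to 15.4) at the FGO stage. Both growing libraries were thus more than 2-fold above both others. In GO1 it ranked 822 among the 25587 listed genes by RPKM. Within a protocol the values were close together, with log2 changes of 0.14 (0.11 to 0.17) from NGOs to FGOs and -0.21 (-0.23 to -0.20) from GO1 to GO2, and those of Brca1 were 0.11 and 0.14. Across protocols the log2 change of Brca2 was 1.46 from NGOs to GO1 and -1.18 from GO2 to FGOs, where stage and protocol cannot be told apart. The ratio of Brca2 to Brca1 by RPKM was 1.06 (1.03 to 1.08) at the NGO stage, 2.13 (2.10 to 2.17) at GO1, 1.67 (1.65 to 1.69) at GO2 and 1.08 (1.05 to 1.10) at the FGO stage. Both genes are also read in dividing cells, whose 6 markers (Mki67, Top2a, Ccna2, Cdc6, Pcna and Rrm2) had a summed RPKM of 67.6 at the NGO stage, 101 at GO1, 90.6 at GO2 and 70.2 at the FGO stage. Mki67, which marks cells in cycle, was at 12.1, 40.1, 32.2 and 12.7 and made up most of the difference between the sums of NGOs and GO1. The other markers did not share one profile: Pcna was at 1.56, 7.67, 7.03 and 1.43, whereas Ccna2 (33.2, 29.4, 25.9 and 28.6) and Rrm2 (7.14, 4.99, 5.45 and 9.23) were lower in both growing libraries than in NGOs, and Top2a (7.61, 10.4, 10.4 and 9.65) and Cdc6 (5.94, 8.10, 9.73 and 8.59) were lowest in NGOs. Their part in the values of Brca2 was not tested.

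Msh4 and Msh5 encode the subunits of a heterodimer that holds recombination intermediates on their way to crossovers. Msh4 (chromosome 3 from 153857147 to 153906138, minus strand) had an RPKM of 5.63 (5.39 to 5.88) at the NGO stage, 13.0 (12.7 to 13.4) at GO1, 13.4 (13.1 to 13.6) at GO2 and 10.4 (10.1 to 10.7) at the FGO stage. GO1 and GO2 overlap, and NGOs were below the other 3 libraries. Msh5 (chromosome 17 from 35028605 to 35046745, minus strand) had an RPKM of 0.476 (0.423 to 0.534) at the NGO stage, 0.0956 (0.0741 to 0.121) at GO1, 0.0892 (0.0739 to 0.107) at GO2 and 0.151 (0.123 to 0.184) at the FGO stage. Here NGOs were above all the other libraries, of which GO1 and GO2 overlap.

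The values of the subunits moved in opposite directions. From NGOs to FGOs the log2 change was 0.94 (0.86 to 1.02) for Msh4, from 2073 to 4150 counts, and -1.59 (-1.94 to -1.27) for Msh5, from 291 to 100 counts. The ratio of Msh4 to Msh5 by RPKM was 11.8 (10.5 to 13.4) at the NGO stage, 136 (107 to 176) at GO1, 150 (125 to 181) at GO2 and 68.9 (56.5 to 84.9) at the FGO stage. Between the growing libraries and the others, stage and protocol cannot be told apart. From GO1 to GO2 the changes were 0.01 (-0.04 to 0.05) and -0.13 (-0.58 to 0.32), and both intervals include 0. Msh6, a relative of both that acts in mismatch repair, was at an RPKM of 25.5, 38.8, 36.2 and 32.0 from NGOs to FGOs. This is 53.5 times Msh5 in NGOs and 211 times in FGOs, and 406 times in GO1 and in GO2. The summed level of the stromal, endothelial and blood markers was highest in NGOs without Pecam1 and in FGOs with it. Col1a1 (an RPKM of 2.24) and Col1a2 (0.896) made up most of the NGO sum without Pecam1. Col1a1 was at no more than 0.0191 in the other libraries. Pdgfra differed little between NGOs and GO2 (0.189 and 0.188), as did Ptprc between NGOs and FGOs (0.0192 and 0.0162), and Pecam1 was lowest in NGOs. The part of these markers in the values of Msh5 or Mlh3 was not tested.

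The promoter windows of this pair are shown in the same way, because its subunits differ in level and in the direction of change. The Msh4 window (chr3:153904842-153905141, minus strand) lies inside the span that the table gives for the gene, downstream of its 5′ end, which is not shown. The Msh5 window (chr17:35046573-35046872, minus strand) covers the 5′ end of its gene, so the windows are not alike in place.
Msh4: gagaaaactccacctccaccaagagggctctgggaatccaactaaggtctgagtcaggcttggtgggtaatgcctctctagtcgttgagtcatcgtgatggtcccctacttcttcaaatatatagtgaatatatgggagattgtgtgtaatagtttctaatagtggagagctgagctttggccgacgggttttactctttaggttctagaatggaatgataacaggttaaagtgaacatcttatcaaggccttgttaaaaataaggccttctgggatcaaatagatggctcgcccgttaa
Msh5: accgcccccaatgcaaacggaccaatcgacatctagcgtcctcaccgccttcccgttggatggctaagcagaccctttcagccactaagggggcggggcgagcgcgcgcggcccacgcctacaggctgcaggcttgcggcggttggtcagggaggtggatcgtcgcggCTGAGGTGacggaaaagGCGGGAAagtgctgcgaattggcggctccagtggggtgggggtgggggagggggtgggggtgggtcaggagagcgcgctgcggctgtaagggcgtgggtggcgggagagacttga
The Msh5 window has 27 CpGs and a GC content of 67.3 %, and the Msh4 window 6 CpGs and 43.3 %, where the quartiles of all windows are 3 and 20 CpGs. A CNCCTCAG match begins at -82 and a GCGGGAA match at -65 of Msh5, and the Msh4 window holds none of the letters searched. Of the other members, Brca2 has a GCGGGAA match at -168 and Mlh3 a TAATTG match at -107 from the upstream one of its 2 starts, and Brca1 has no match.

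**Figure D2:**
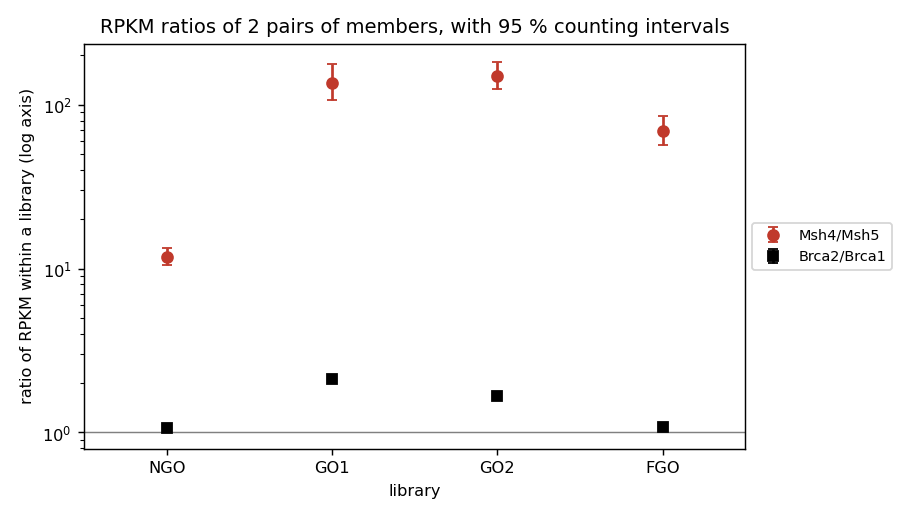
Ratios of RPKM within each library (log axis) for Msh4 over Msh5 and Brca2 over Brca1, with 95 % counting intervals. Msh4 over Msh5 is 11.8 in NGOs and 68.9 in FGOs (dUTP protocol), and 136 in GO1 and 150 in GO2 (ScriptSeq kit). Brca2 over Brca1 stays between 1.06 and 2.13. Between the 2 kinds of library, stage and protocol cannot be told apart.

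Mlh3 encodes a subunit of the nuclease that resolves crossovers. The gene (chromosome 12 from 85234529 to 85270591, minus strand) had an RPKM of 2.26 (2.14 to 2.38) at the NGO stage, 1.85 (1.75 to 1.96) at GO1, 1.73 (1.66 to 1.81) at GO2 and 1.45 (1.36 to 1.55) at the FGO stage. Its values were in the order of the stages, as for Prdm9, but over a range of 1.56-fold, and the intervals of GO1 and GO2 overlap. The log2 change was -0.58 (-0.71 to -0.46) from NGOs to FGOs and -0.13 (-0.23 to -0.03) from GO1 to GO2.

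Taking the members as a group, 1 of the 7 with at least 20 counts in the pair (Prdm9) was at least 4-fold lower in FGOs than in NGOs and 0 were at least 4-fold higher, where 5.55 and 8.57 % of all 15270 genes were. At 2-fold, 2 were lower (Prdm9 and Msh5) and 1 was higher (Dmc1), against 16.8 and 17.7 % of all genes. The median log2 change of the 7 was 0.11, beside -0.01 over all genes. From GO1 to GO2 the number past 4-fold was 0 of 7 in either direction (0.254 % of 15749 genes lower, 1.51 % higher), and so was the number past 2-fold (2.86 % lower, 6.88 % higher). Across protocols, NGOs to GO1 gave 1 member at least 4-fold lower (Msh5) and 0 higher (6.61 and 5.19 % of 15136 genes), and 1 lower and 3 higher at 2-fold (21.3 and 16.5 %), the latter being Dmc1, Brca2 and Msh4. For GO2 to FGOs the number past 4-fold was 0 in either direction (3.39 % lower and 1.78 % higher among 15805 genes), and at 2-fold 2 were lower (Prdm9 and Brca2) and 0 higher (9.26 and 10.9 %). Nothing particular to the members is read from these counts.

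**Figure D3:**
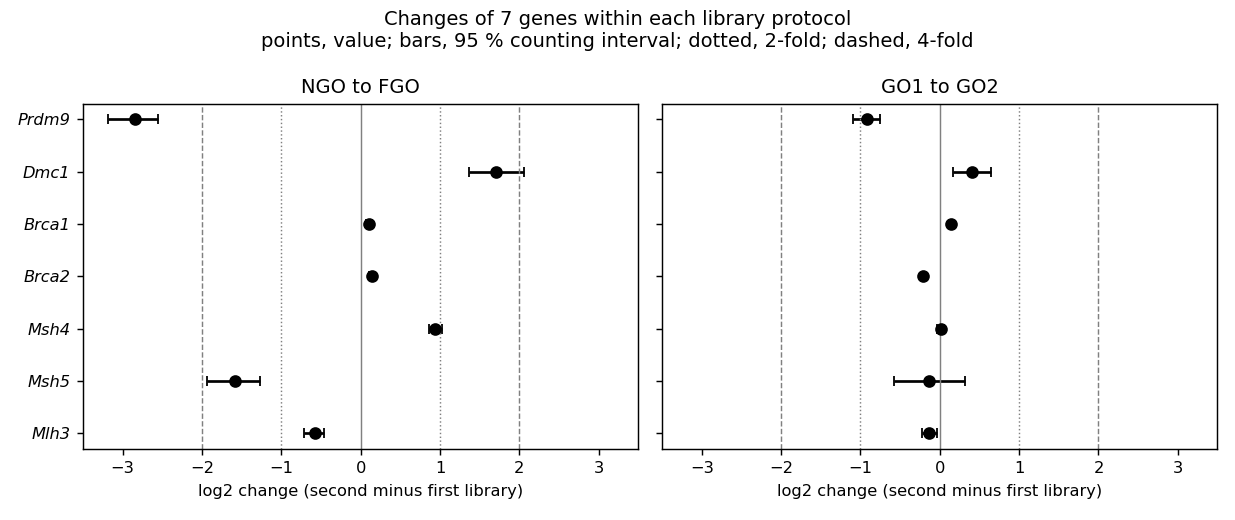
Log2 change of the 7 members with at least 20 counts in the pair, in the NGO to FGO pair (left) and the GO1 to GO2 pair (right), with 95 % counting intervals and lines at 2-fold (dotted) and 4-fold (dashed). From NGOs to FGOs the values run from -2.84 for Prdm9 to 1.70 for Dmc1, and from GO1 to GO2 all 7 lie within 2-fold.

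Other genes of recombination and repair were set beside the members, in 6 lists. The 68 listed genes that are not members had a median RPKM of 5.04 at the NGO stage, 5.54 at GO1, 5.36 at GO2 and 5.02 at the FGO stage. Of 66 with enough counts, 1 was at least 4-fold higher and 1 at least 4-fold lower in FGOs than in NGOs, and at 2-fold 5 were higher and 4 lower, these included. Of all genes, 8.57 % were at least 4-fold higher and 5.55 % at least 4-fold lower, and 17.7 and 16.8 % at 2-fold. The median log2 change of the 66 was -0.02, beside -0.01 over all genes. Between the growing stages 0 of 65 reached 2-fold.

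In the list named DSB formation, 3 of 7 genes were at least 2-fold lower in FGOs, namely Prdm9, Zcwpw1 and Mei1, where 16.8 % of all genes were. The list was drawn broadly, and a place in it does not mean that a gene is needed for breaks. Zcwpw1, which encodes a reader of the histone marks that PRDM9 sets, was at an RPKM of 19.1 at the NGO stage, 7.34 at GO1, 7.16 at GO2 and 5.81 at the FGO stage, a log2 change of -1.66. Mei1, which is needed for breaks to form, was at 0.180 in NGOs and between 0.0466 and 0.0562 in the others. Mei4, a partner of the break machinery, went the other way, from 0.223 in NGOs and 0.177 in GO1 to 0.334 in GO2 and 0.930 in FGOs, a log2 change of 2.10 (1.82 to 2.42) from NGOs to FGOs, from 113 to 510 counts. Mei4 and Prdm9 are the list genes that met the rule for naming (4-fold and at least 100 counts, within either protocol), and the other genes in these paragraphs on lists are named because their count is small, after their values were seen.

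In resection and strand exchange, 1 of 23 genes was at least 4-fold lower in FGOs, where 5.55 % of all genes were. Spata22, which binds single-stranded DNA with MEIOB, had 22 counts in NGOs and 0 in FGOs, at least 7.65-fold lower with the floor of 3 counts in FGOs. At 2-fold, 3 were higher (17.7 % of all genes), namely Dmc1, Meiob and Rad51ap2. Meiob was just past the threshold, at a log2 change of 1.01 from only 29 counts in NGOs and 62 in FGOs. Rad51ap2 was at an RPKM of 1.86, 6.06, 5.93 and 3.69 from NGOs to FGOs. Of 10 crossover designation genes, Msh5 and Tex11 were at least 2-fold lower (16.8 % of all genes) and Shoc1 at least 2-fold higher (17.7 %). Tex11, a gene of the X chromosome that encodes a scaffold of crossover proteins, was at 3.41, 1.04, 0.712 and 1.11. This profile has its highest value in NGOs, like that of Msh5.

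The other 3 lists were counted in the same way, without a test of a difference between lists, beside 16.8 % of all genes at least 2-fold lower and 17.7 % at least 2-fold higher. In crossover resolution 0 of 11 reached 2-fold from NGOs to FGOs. In mismatch repair 0 of 6 did, Pms1 being just below the threshold at an RPKM of 3.64 for NGOs and 7.02 for FGOs. In the BRCA and Fanconi list 1 of 17 did, Fancc, at 3.11, 2.45, 4.34 and 9.63 RPKM.

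**Figure D4:**
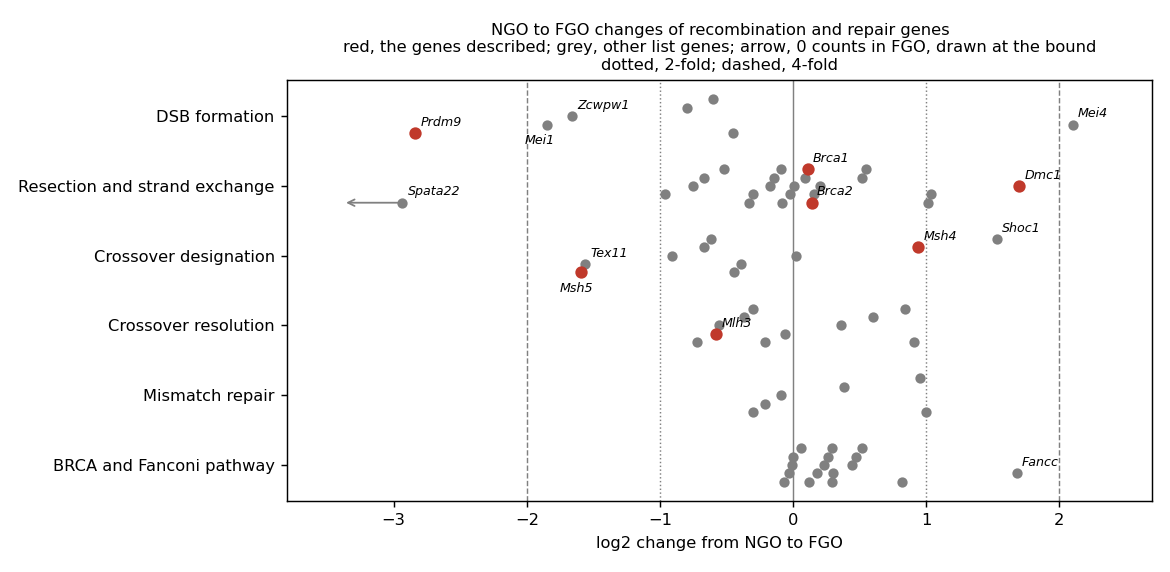
Log2 change from NGOs to FGOs of the genes of 6 recombination and repair lists that pass the minimum of 20 counts, with the members in red, other genes in grey and lines at 2-fold (dotted) and 4-fold (dashed). An arrow marks Spata22, drawn at its lower bound, and Fancc is the only gene past 2-fold outside the 3 upper lists.

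The profiles of the members were compared with those of 14286 other genes with at least 100 counts, by the largest difference in log2 scaled count, centred over the 4 libraries. Lrrc6 was closest to Prdm9 (0.081), Fam35a to Dmc1 (0.032), Zranb1 to Brca1 (0.035), Rb1 to Brca2 (0.024), Jak2 to Msh4 (0.026), Serinc5 to Msh5 (0.049) and Grpel2 to Mlh3 (0.017). The next closest were Rp2h for Prdm9 (0.090), Creb3l4 for Dmc1 (0.056), Atp5k for Brca1 (0.037), Zfp932 for Brca2 (0.048), Srgn for Msh4 (0.036), Gstp1 for Msh5 (0.064) and Mrpl55 for Mlh3 (0.029). Lrrc6 itself was at an RPKM of 12.3, 8.10, 4.80 and 1.58 from NGOs to FGOs. Within 0.25 of the profile lay 11 genes (0.077 %) for Prdm9, 77 (0.539 %) for Msh5, 951 (6.66 %) for Brca1 and 902 (6.31 %) for Mlh3. These numbers depend on the size of the changes and on the counts, and are not read as a trait of a gene. The counting interval of Msh5 from GO1 to GO2 (-0.58 to 0.32), for example, is wider than this window. The profiles also span both library protocols. Among the members, Mlh3 and Brca1 were closest to each other (0.54) and Dmc1 and Msh5 farthest apart (2.58). With 4 libraries these are descriptions of the profiles.

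No other gene of the table overlaps a member. Nbr1 starts 194 bases from Brca1 on the other strand, and was at an RPKM of 17.7, 18.8, 19.7 and 17.4 from NGOs to FGOs. In GENCODE M21, exons of 2 members share bases with a gene on the other strand, Brca2 with the antisense gene Gm42529 (41 bases) and Msh4 with the snoRNA gene Gm24395 (125 bases). The strand setting behind the values is not given in the sources used here, so reads of these stretches could not be assigned.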

How the data were processed

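The 4 RNA-Seq libraries, 1 for each oocyte stage, were compared. The authors deposited RPKM on a linear scale, although the table is named for read counts. Per the labels, reads were trimmed with Trim Galore 0.2.8 and mapped to GRCm38 with TopHat2 2.0.9. The counting program, annotation and strand setting are not given in the sources used here. The planned log2 ratios were computed on counts recovered from RPKM. The library totals were those that made RPKM times length whole for genes with 1 exon (whole within 0.0005 counts plus 3e-07 of the count for at least 99.37 % of values), and the exon length of other genes was the GENCODE M21 exon union, a transcript length or the smallest length that made all libraries whole. In simulated data the smallest length was true for 95.6 % of 1891 genes that had 10 or more counts. The smallest length was used for Dmc1, Brca1, Msh4 and Mlh3. Brca1, at 8476 bases, was longer than any simulated gene. Its counts in every library, and those of Msh4 in GO2, were above the simulated range, which the rate does not cover. Where the smallest length is too small, counts are too low by the same factor in every library and intervals too wide, while RPKM is not affected. Library scaling used the trimmed mean of log ratios (30 % of ratios, 5 % of mean expression), a prior count of 1 and a minimum of 20 counts in each pair. In simulated counts for NGOs and FGOs over 25587 genes, 200 of 200 genes changed 8-fold were found and 0 unchanged genes called. These counts held Poisson error only, and the changed genes were taken from well-counted ones. The simulation thus checks the calculation and gives no rate of false calls for the real libraries. Intervals are 95 % Poisson intervals for levels and exact binomial intervals for ratios, and reads that carry no molecular identifier are not independent molecules. Among genes whose exon length was not set to the smallest, counts of 2 to 21 were even for 38.2 % in NGOs and 36.7 % in FGOs. The share was 51.8 % in GO1 and 52.4 % in GO2, and how read pairs were counted is not given in the sources used here. Python 3.11.15, numpy 2.4.6, pandas 2.3.3, scipy 1.17.1 and matplotlib 3.10.9 were used.

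The members and gene lists were chosen with earlier results of these data known. By rule, the genes named are the 8 members, list genes past 4-fold that reach 100 counts in the higher library (at most 3 in each direction and list, for NGOs to FGOs and GO1 to GO2), the nearest relatives of the members (of which only Msh6 is reported here), their neighbours and the genes with the most similar profiles. Other list genes are named after their values were seen, as stated there. Ankrd31 and Swsap1 were not found under the symbols searched. The alternatives were other scalings, prior counts, count minimums, thresholds, rankings and intervals from counts divided by 4.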

Additional observations from a re-analysis of the deposited data

How the results depend on the processing

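No paired analysis was possible because each stage has 1 library and no result comes from a test. The number of members past 4-fold, in both directions and both pairs, was the same under the other scalings, a prior count of 5 and no minimum of counts. With a threshold of 2-fold it was 2 lower and 1 higher from NGOs to FGOs, and for the other pathway genes 4 lower and 5 higher. With no minimum of counts, Top6bl, which had at most 5 counts in any library, made the number of higher pathway genes 2 for NGOs to FGOs and 1 for GO1 to GO2. Of 14 log2 changes of members, 4 left their counting interval when scaled by the library total and 2 when scaled by the median of log ratios, all of them of Brca1 or Brca2, with the same sign. Across protocols, scaling by the library total moved the median of all genes by 0.13 from NGOs to GO1 and by 0.11 from GO2 to FGOs, so that Brca2 was 1.33 and -1.07 on that scale. With counts divided by 4 before the intervals, for fragments that may be counted more than once, neighbouring libraries also overlap for Dmc1 (all 3 steps), Mlh3 (all 3 steps), Brca1 and Brca2 (FGOs and NGOs) and Msh5 (FGOs and GO1), and those of Prdm9 remain apart. A minimum of 10 counts leaves 7 members in every library. Percentiles by RPKM among all listed genes, or by counts without gene length, moved by at least 1 point for 29 and 28 of 29 values. With 1 library per stage, the depth limits only counting error, and differences between oocyte pools could not be measured.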
